A study of Rattus norvegicus with 9 samples.

Results

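The 8 genes described here encode proteins that shorten the life of messenger RNAs: Zfp36, Zfp36l1 and Zfp36l2 of the ZFP36 family, and Tob1, Tob2, Btg1, Btg2 and Btg3 of the BTG/TOB family. They were picked by symbol out of the 22077 intact genes of the deposited expression table, and all 8 were among the 12447 genes that passed the filter on low counts. Their exon reads in the 3 groups below, in results of these same data, were known when they were chosen. The values of these genes against normoxia are therefore a description, and no p-value is given for them.

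RNA sequencing measured total RNA of peripheral blood mononuclear cells (PBMC, the lymphocytes and monocytes of blood with variable amounts of other cells) of wild-type Sprague-Dawley rats. The 3 groups, of 3 libraries each, were normoxia at day 0, Sugen-hypoxia (SuHx) at day 28 and SuHx at day 56. SuHx, a rat model of pulmonary hypertension, joins a blocker of VEGF receptors to a period of low oxygen; the labels give neither its dose nor its length. The only controls are those of day 0, so that day, age and treatment cannot be told apart. Nothing in the labels ties the libraries of a group to separate animals, so a p-value here covers only how much these libraries vary, and that variation could be technical.

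The ZFP36 proteins (ZFP36 is also called tristetraprolin) carry paired zinc fingers that bind AU-rich elements, short sequences in the 3′ untranslated regions of many cytokine and growth factor mRNAs. They bring in the CCR4-NOT complex, which removes the poly(A) tail, and the mRNA is then decapped and degraded. BTG and TOB proteins bind the CCR4-NOT nucleases CNOT7 and CNOT8; TOB proteins also bind the cytoplasmic poly(A)-binding protein, so that they reach tails without an AU-rich element. In mice, Zfp36 limits inflammation by keeping TNF mRNA short-lived, Zfp36l1 and Zfp36l2 restrain the cell cycle of developing lymphocytes, and Btg1 and Btg2 keep T cells quiescent. Zfp36 and Btg2 are known as early response genes in several cell types.

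The libraries held 22148400 to 39947430 exon reads, and 3 counts in a library equal 0.0751 to 0.135 CPM (exon reads scaled to a common library total, here before scaling factors). Globin genes took 1.43% to 29.0% of exon reads at day 28 and 40.6% to 44.6% at day 56, against 43.1% to 56.4% in normoxia, and intron reads made up 14.2% to 24.9%, 11.9% to 16.9% and 5.37% to 14.6% of the reads in genes. Normoxia replicate 1 stood apart from the other normoxia libraries, with 14.6% intron reads against 6.60% and 5.37%. Day 28 replicate 3 stood apart with 29.0% globin reads, against 1.43% and 4.84% in the other day 28 libraries. Summed over 9 monocyte markers, the level was 3130 to 10031 CPM at day 28 and 1632 to 2584 CPM at day 56, against 2047 to 4315 CPM in normoxia. The 10 T cell markers summed to 1166 to 1879, 1595 to 2020 and 1569 to 1700 CPM in the same order of groups. The 9 B cell markers summed to 1618 to 3166, 1629 to 2542 and 2671 to 4713 CPM, and the 10 NK cell markers to 349 to 665, 712 to 887 and 487 to 737 CPM. The 8 erythroid markers summed to 2283 to 64364, 105219 to 117914 and 112205 to 271078 CPM, and the 10 platelet markers, of which Gp5 had 0 reads, to 585 to 929, 2072 to 4117 and 750 to 3685 CPM. The 10 neutrophil markers summed to 295 to 1008, 122 to 255 and 108 to 247 CPM. The part of these differences in cell markers in the results below was not tested. Fits without the globin genes called 1 of the 8 genes at day 28 and 6 at day 56, as with them. Over all genes these fits called 16 and 853, against 16 and 886. They leave the counts of all other genes as they were, so they cannot show the part of the cell mixture. Other fits took the intron share as a covariate. In bulk samples, fewer cells of a type and less RNA per cell cannot be told apart.

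The windows before the annotated start sites are given for Zfp36 and Btg2, which were higher in all 6 SuHx libraries than in any normoxia library, and for Btg1, whose libraries overlapped in both comparisons; these 3 were chosen after their values were seen. Each is the 250 bases before the start site, from RefSeq on GRCr8, a later build than the rn6 of the files. Capitals mark matches to the motifs below.
Zfp36, chr1:92799109-92799358, minus strand: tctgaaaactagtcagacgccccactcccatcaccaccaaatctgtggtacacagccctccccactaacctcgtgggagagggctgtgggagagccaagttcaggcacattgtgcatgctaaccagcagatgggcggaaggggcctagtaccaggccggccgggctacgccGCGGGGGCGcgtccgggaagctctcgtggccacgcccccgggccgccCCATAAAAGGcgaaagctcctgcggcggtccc
Btg2, chr13:48087691-48087940, minus strand: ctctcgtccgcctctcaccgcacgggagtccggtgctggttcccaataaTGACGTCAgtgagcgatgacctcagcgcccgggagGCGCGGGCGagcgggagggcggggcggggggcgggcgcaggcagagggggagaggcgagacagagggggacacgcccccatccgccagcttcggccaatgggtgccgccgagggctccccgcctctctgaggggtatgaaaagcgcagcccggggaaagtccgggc
Btg1, chr7:33227899-33228148, plus strand: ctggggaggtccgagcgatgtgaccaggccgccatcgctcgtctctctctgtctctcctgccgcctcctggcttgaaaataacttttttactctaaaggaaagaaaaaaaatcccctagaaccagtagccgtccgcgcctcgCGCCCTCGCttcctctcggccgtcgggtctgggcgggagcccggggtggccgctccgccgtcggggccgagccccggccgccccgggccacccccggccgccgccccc
The motifs were the CArG box of serum response factor, the cyclic AMP response element TGACGTCA and its shorter form TGACG (which lies inside it), the AP-1 site TGANTCA, the NF-kB site, the EGR site GCGNGGGCG and the TATA box TATAAA, searched on both strands from 250 bases before to 50 after each start site. Zfp36 held a CArG box that began 32 bases before the start, and an EGR match at 79 bases. Btg2 held the full cyclic AMP element at 201 bases and an EGR match at 166 bases, and Btg1 held an EGR match on the minus strand at 108 bases. Of all 33469 windows, 1.64% held a CArG box, 1.83% the full cyclic AMP element, 21.2% its shorter form, 7.33% an AP-1 site, 7.51% an NF-kB site, 4.98% an EGR site and 14.2% a TATA box. Of the other genes, Zfp36l1 held an AP-1 and a TATA match, Zfp36l2 and Tob2 the shorter cyclic AMP element and Btg3 none of these letters. The Tob1 window, with an NF-kB and a TATA match and a GC content of 39.2%, was set by a GRCr8 start that may not be the start of the single-exon rn6 gene counted here. GC content was 65.2% in the Zfp36 window, 72.0% in that of Btg2 and 68.4% in that of Btg1. A match is a description of the letters, not a bound site, and the EGR match is present in Btg1 as well as in Zfp36 and Btg2.

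Zfp36 is the family's founding member and an inflammation-limiting decay factor. It spans 85380087 to 85382569 on chromosome 1 (rn6) with 2 exons. Its exon reads stood at 88.6, 126 and 130 CPM in normoxia, 511, 652 and 216 CPM at day 28 and 328, 400 and 379 CPM at day 56. No SuHx library fell within the normoxia range, and the day 28 libraries differed 3.02-fold among themselves while those of day 56 differed 1.22-fold. The log2 fold change against normoxia was 2.00 (SE 0.37) at day 28 and 1.68 (SE 0.36) at day 56. Day 28 replicate 3, the lowest SuHx library for Zfp36, was also the one with 29.0% globin reads. Day 28 replicate 2, the highest, had the highest summed monocyte markers (10031 CPM) and neutrophil markers (1008 CPM). Normoxia replicate 3, with Zfp36 at 130 CPM, had 4315 CPM of monocyte markers, above the 1632 to 2584 CPM of day 56. The part of the cell mixture in these levels was not tested.

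Zfp36l2, which restrains division of lymphocyte precursors in mice, had the largest log2 fold change of the 8 genes at day 56. It lies on chromosome 6 (7417424 to 7421456, rn6; 2 exons). Its level was 268, 246 and 296 CPM in normoxia, 796, 371 and 714 CPM at day 28 and 1279, 1112 and 1248 CPM at day 56. The 3 groups did not overlap: each day 28 library was above each normoxia library and below each day 56 library. It differed from normoxia by a log2 fold change of 1.21 (SE 0.29) at day 28, 2.17 (SE 0.29) at day 56 and 0.95 (SE 0.28) for day 56 against day 28. Of its exon reads 72.0% to 84.4% mapped to 1 place, whereas the other 7 genes had 100% unique reads; with unique reads only, the log2 fold change at day 56 was 2.03. Day 28 replicate 2, the highest of its group for Zfp36, was the lowest for Zfp36l2.

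Zfp36l1, a paralogue that acts on AU-rich mRNAs in lymphocytes, was also higher in all 6 SuHx libraries. It lies on chromosome 6 (103308044 to 103313074, rn6; 2 exons). Its level was 146, 90.2 and 73.9 CPM in normoxia, 206, 191 and 202 CPM at day 28 and 228, 204 and 182 CPM at day 56. The highest normoxia value, that of replicate 1, still lay below all SuHx values, and the SuHx days overlapped. The log2 fold change was 0.95 (SE 0.24) at day 28 and 0.99 (SE 0.24) at day 56, and 0.04 (SE 0.24) between the days. Without normoxia replicate 1 it was 1.31 at day 28 and 1.33 at day 56.

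**Figure D1:**
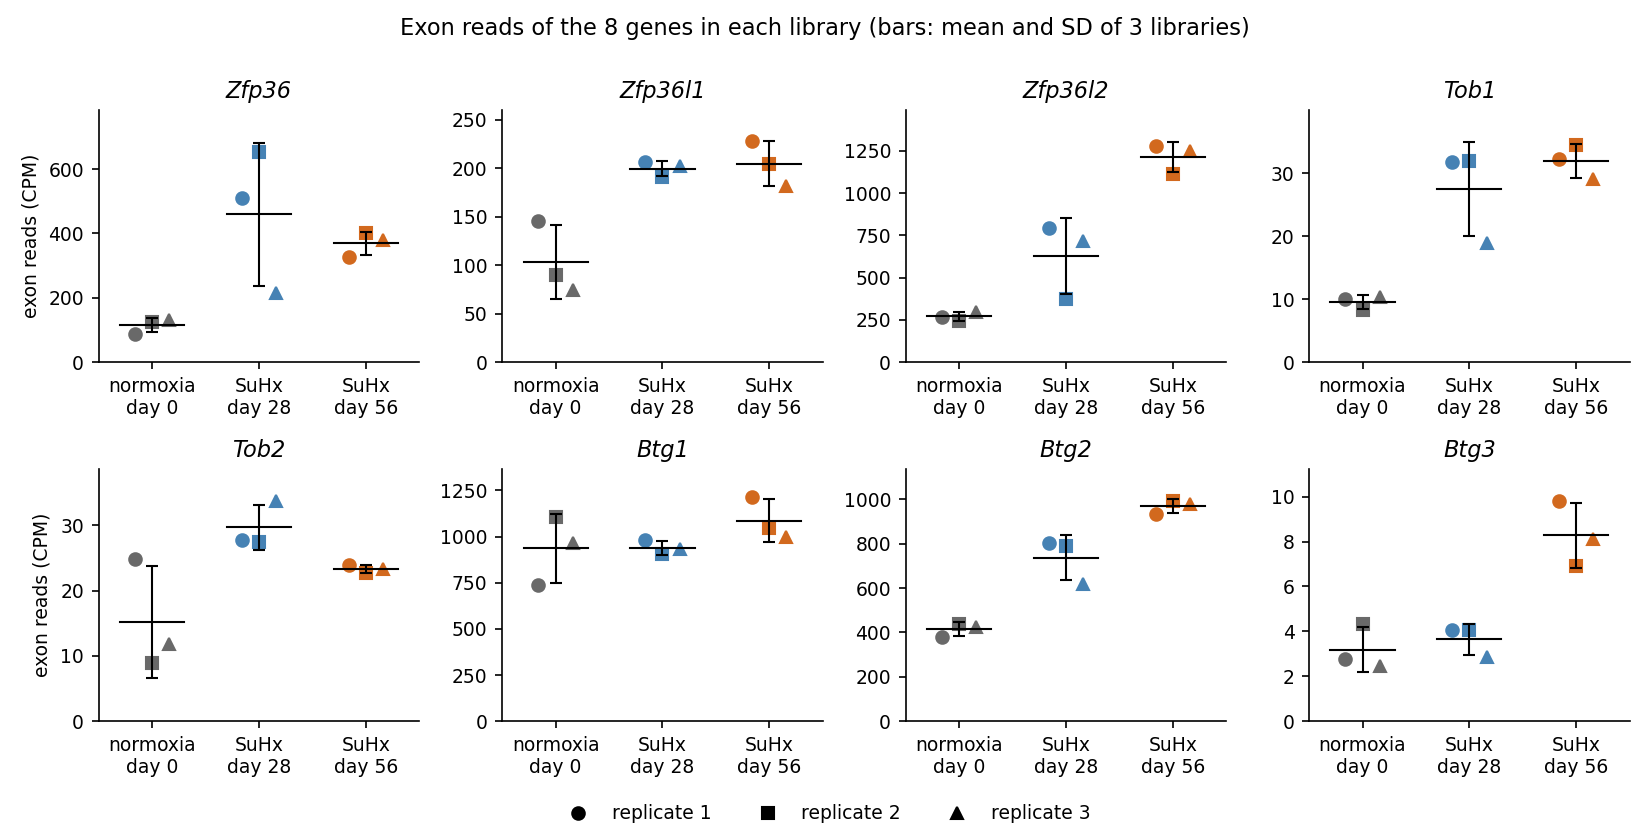
Exon reads in CPM (y axis, from 0 in each panel) of the 8 genes in normoxia at day 0 and SuHx at days 28 and 56 (x axis); each point is 1 library, its shape the replicate number, and the bars show the mean and SD of 3 libraries. Zfp36l2 steps up at each day without overlap, Zfp36 is most scattered at day 28 (216 to 652 CPM), and Btg1 overlaps normoxia at both SuHx days.

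Tob1, an anti-proliferative adaptor between the poly(A)-binding protein and CCR4-NOT, was higher in all 6 SuHx libraries. It is a single-exon gene on chromosome 10 (81913688 to 81915716, rn6). Its level was 9.95, 8.21 and 10.4 CPM in normoxia, 31.8, 31.9 and 18.9 CPM at day 28 and 32.3, 34.5 and 29.0 CPM at day 56. The groups did not overlap with normoxia, and day 28 replicate 3 was the lowest SuHx library, as for Zfp36. This gave a log2 fold change of 1.53 (SE 0.22) at day 28 and 1.74 (SE 0.22) at day 56. Its exon reads numbered 161 to 239 in normoxia libraries and 591 to 1255 in SuHx libraries.

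Tob2, its paralogue, binds the same partners. It spans 123079536 to 123088279 on chromosome 7 (rn6; 2 exons), where the table also lists the overlapping gene AC096601.1; since no source used here states that the counting used strand, reads of the pair cannot be told apart. Its level was 24.9, 8.87 and 11.8 CPM in normoxia, 27.8, 27.5 and 33.7 CPM at day 28 and 23.9, 22.7 and 23.3 CPM at day 56. Normoxia replicate 1 decided the value: it lay above all 3 day 56 libraries, while the other normoxia libraries lay below them. The log2 fold change was 0.97 (SE 0.32) at day 28 and 0.62 (SE 0.32) at day 56, and without normoxia replicate 1 it was 1.56 at day 28 and 1.20 at day 56. Tob2 was the 1 gene of the 8 whose day 56 libraries all lay below its day 28 libraries, with a log2 fold change of -0.35 (SE 0.32).

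Btg2, a p53-inducible early response gene that slows division, was higher in all 6 SuHx libraries. It spans 50913179 to 50916982 on chromosome 13 (rn6; 2 exons). Its level was 381, 439 and 425 CPM in normoxia, 804, 791 and 619 CPM at day 28 and 933, 994 and 981 CPM at day 56. The 3 groups did not overlap, and day 28 replicate 3 was again the lowest SuHx library. In the fit the log2 fold change was 0.83 (SE 0.20) at day 28, 1.22 (SE 0.20) at day 56 and 0.39 (SE 0.20) for day 56 against day 28. The spread at day 56 was small, with a highest library 1.07 times the lowest.

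Btg1, a quiescence-associated gene of lymphocytes, was the most abundant of the 8 per length of exon and overlapped normoxia at both days. It spans 37812830 to 37815088 on chromosome 7 (rn6; 2 exons). Its level was 738, 1105 and 964 CPM in normoxia, 981, 903 and 930 CPM at day 28 and 1216, 1045 and 1000 CPM at day 56. The normoxia libraries spanned all 3 day 28 values and overlapped those of day 56, while each day 56 value lay above each day 28 value. As a log2 fold change this was 0.00 (SE 0.22) at day 28 and 0.22 (SE 0.22) at day 56; at day 28 its sign changed with the scaling, to -0.02 with upper-quartile factors.

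Btg3, which binds the same nucleases, was the scarcest. It has 5 exons between 16873645 and 16889201 on chromosome 11 (rn6). Its exon reads numbered 66, 118 and 38 in normoxia, 152, 159 and 89 at day 28 and 263, 164 and 242 at day 56. In CPM that was 2.75, 4.34 and 2.47 in normoxia, 4.04, 4.04 and 2.85 at day 28 and 9.81, 6.89 and 8.11 at day 56. All day 56 libraries lay above all others, and day 28 overlapped normoxia. Its fitted log2 fold change was 0.19 (SE 0.28) at day 28, 1.37 (SE 0.28) at day 56 and 1.18 (SE 0.28) for day 56 against day 28.

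**Figure D2:**
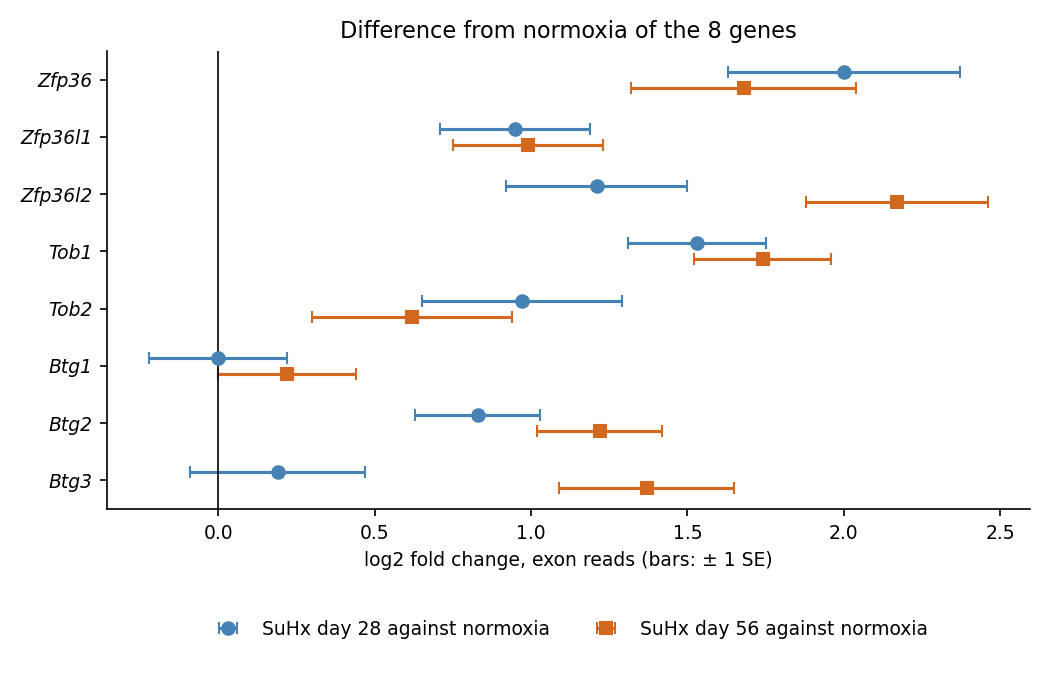
Log2 fold change of exon reads against normoxia (x axis) for the 8 genes (y axis) at SuHx day 28 (circles) and day 56 (squares), with bars of 1 SE from the edgeR fit over 9 libraries. Btg1 sits at 0 to 0.22, Zfp36l2 reaches 2.17 at day 56, and Btg3 sits at 0.19 at day 28 and 1.37 at day 56.

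Counted over the 8 genes, 1 was past the threshold at day 28, Tob1, where 0.129% of all tested genes were called and 0.0884% called higher, and 6 were past it at day 56, where 7.12% were called and 3.42% called higher. The 2 not called at day 56 were Tob2 and Btg1. The threshold was an adjusted p of 0.05 in edgeR's quasi-likelihood test. These contrasts chose the genes, so nothing is read from the counts. For 6 genes the day 28 libraries all lay above normoxia, where 11.4% of tested genes did so, and the exceptions were Btg1 and Btg3. For 6 genes the day 56 libraries all lay above normoxia, where 15.6% did so, and the exceptions were Tob2 and Btg1. The median log2 fold change of the 8 was 0.96 at day 28 and 1.29 at day 56, against -0.01 and -0.04 over all tested genes. Between the days none of the 8 passed in edgeR's test, where 0.546% of genes did in either direction and 0.426% were called higher. An unadjusted p under 0.05 was reached by 2 of the 8, and by 2302 of all 12447 tested genes. DESeq2 called 2 of the 8, Zfp36l2 and Btg3, and 1057 of all genes. In 4 genes day 56 lay wholly above day 28, where 17.8% of genes did so, and in 1, Tob2, wholly below, where 17.4% did so. The comparisons with normoxia share their 3 normoxia libraries.

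At day 28 the count changed without any 1 library, the day 56 libraries included, which are outside this comparison. Without any 1 day 56 library the log2 fold change of Tob1 stayed at 1.53. Without normoxia replicate 1 it was 6 of 8, while 2914 genes were then called higher and 2818 lower among all tested, against 11 and 5 with it. Without day 28 replicate 3 it was 2, where 389 of all genes were called. Without any 1 of the other libraries the count was 0, where 2 to 6 of all genes were called. At day 56 the count was 7 without normoxia replicate 1, 3 without normoxia replicate 2 and 2 without normoxia replicate 3. Over all genes 5453, 93 and 119 were then called, against 886 with all libraries. Without day 56 replicate 1 the count was 3, and without day 56 replicate 2 or 3 it was 2. Over all genes 304, 85 and 109 were then called. Under all 19 alternatives tried, the day 56 log2 fold change was 2.03 to 2.24 for Zfp36l2 and 1.51 to 1.81 for Tob1. Both genes were past the threshold in each. These fits reuse values known when the genes were chosen, so nothing is read from their passing.

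The column headers carry library codes, 046 and 061 to 062 for normoxia, 068 to 070 for day 28 and 047 and 063 to 064 for day 56; what the codes mean is not stated. Whatever the codes mark, those of day 28 follow all the others, so that and the day 28 group cannot be told apart. In the 4 libraries coded 061 to 064, an alternative chosen after seeing the data, the log2 fold change of day 56 against normoxia was 2.14 (SE 0.15) for Zfp36l2, 1.62 (SE 0.11) for Zfp36, 1.25 (SE 0.14) for Zfp36l1, 1.80 (SE 0.17) for Tob1, 1.18 (SE 0.17) for Tob2, 1.21 (SE 0.11) for Btg2, 1.13 (SE 0.29) for Btg3 and 0.00 (SE 0.12) for Btg1. In the single pair coded 047 and 046 the log2 ratio was 2.25, 1.89, 0.64, 1.70, -0.06, 1.29, 1.84 and 0.72 for the same genes in this order. The library coded 046 is normoxia replicate 1, which stood apart in its intron share, and a single pair has no replicate check. In both sets of libraries the genes other than Tob2 and Btg1 were higher at day 56.

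Levels can be set side by side between genes only per length of exon. On that scale (CPM per kb) the order in normoxia was Btg1 640, Btg2 162, Zfp36l2 76.4, Zfp36 63.5, Zfp36l1 37.9, Tob2 6.58, Tob1 4.70 and Btg3 2.41. Zfp36l2 and Zfp36, Zfp36 and Zfp36l1, and Tob2 and Tob1 overlapped there. At day 28 the order was Btg1 642, Btg2 288, Zfp36 254, Zfp36l2 177, Zfp36l1 73.2, Tob1 13.6, Tob2 12.9 and Btg3 2.75, with overlap of Btg2 with Zfp36, Zfp36 with Zfp36l2, and Tob1 with Tob2. At day 56 it was Btg1 743, Btg2 378, Zfp36l2 343, Zfp36 204, Zfp36l1 75.0, Tob1 15.7, Tob2 10.1 and Btg3 6.26, and no neighbours overlapped. Btg1 exceeded 98.9% of tested genes in normoxia and 99.2% at each SuHx day, while Btg3 exceeded 28.7% in normoxia, 31.1% at day 28 and 49.5% at day 56.

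The summed level of the ZFP36 family was 178 ± 5.51 CPM per kb in normoxia, 504 ± 97.1 at day 28 and 622 ± 10.2 at day 56 (SD, n = 3 each). The normoxia sums spanned only 172 to 183, although the 3 genes divided them differently. Zfp36l1 supplied 30.0% of the sum in normoxia replicate 1, against 19.2% and 14.8% in the other normoxia libraries. At day 28 Zfp36 supplied 48.4%, 67.3% and 30.1% and Zfp36l2 38.6%, 19.6% and 51.1%, so that the leading gene differed between libraries. At day 56 Zfp36l2 led in all 3 libraries with 51.5% to 57.7%, against 40.4% to 45.9% in normoxia.

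The BTG/TOB family summed to 815 ± 135 CPM per kb in normoxia, 959 ± 56.0 at day 28 and 1154 ± 68 at day 56 (SD, n = 3 each). Btg1 took 78.2% ± 2.71 of the sum in normoxia, 67.0% ± 3.05 at day 28 and 64.3% ± 2.88 at day 56, and Btg2 took 20.1% ± 1.97, 30.0% ± 2.91 and 32.9% ± 2.88. The shares of Btg2 at each SuHx day lay above the 18.3% to 22.2% of normoxia in every library. Tob1, Tob2 and Btg3 together added little: their mean shares were 0.592%, 0.877% and 0.294% in normoxia and 1.36%, 0.877% and 0.541% at day 56.

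**Figure D3:**
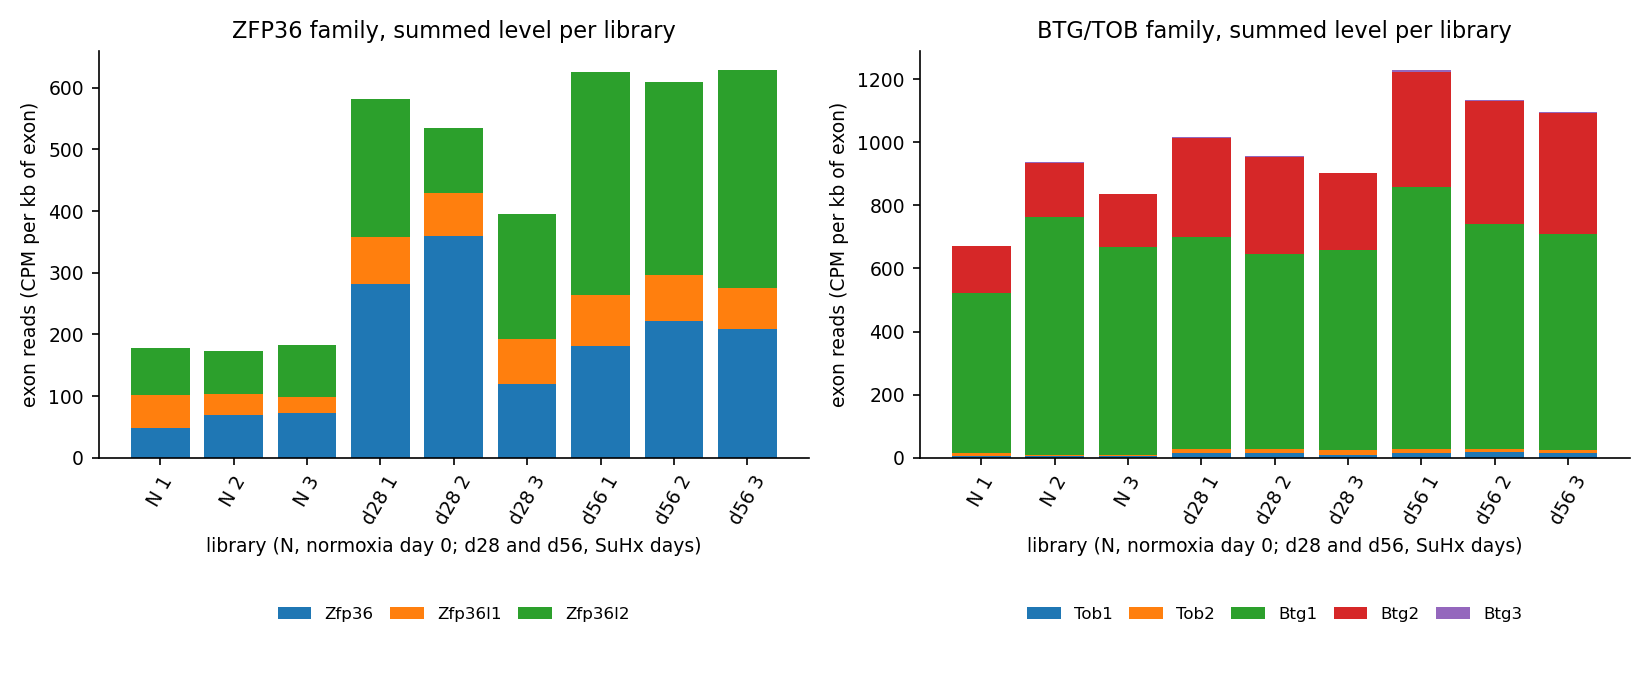
Exon reads in CPM per kb of exon (y axis, from 0), stacked by gene, in each of the 9 libraries (x axis; N, normoxia), for the ZFP36 family on the left and the BTG/TOB family on the right. The ZFP36 sum is 172 to 183 in normoxia, 395 to 582 at day 28 and 610 to 629 at day 56, with Zfp36l2 the largest layer at day 56.

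Intron reads, which come largely from unspliced RNA, were counted in the same libraries and are described on the library scale of the exon reads. For Zfp36 they made up 2.33% to 3.60% of the gene's reads in all 9 libraries. The fold of group means of its intron reads was 4.41 at day 28 and 2.78 at day 56, beside 4.0 and 3.21 for exon reads. Zfp36l2 had intron folds of 2.64 and 4.49, beside exon folds of 2.32 and 4.49, and Btg2 had 2.08 and 2.25, beside 1.78 and 2.33. For these 3 genes the intron and exon folds were thus of similar size. Zfp36l1 likewise had 1.78 and 1.95, beside 1.93 and 1.98.

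For Tob2, Btg1 and Btg3 the intron folds were larger than the exon folds at both days. Tob2 had intron folds of 2.65 and 1.88, beside exon folds of 1.96 and 1.54, from 9 to 135 intron reads a library; its overlap with AC096601.1 bears on these reads too. Tob1, with 0 to 8 intron reads a library, is given no fold. Btg1 averaged 19.6 ± 0.551 intron CPM in normoxia, 29.3 ± 3.90 at day 28 and 35.8 ± 2.18 at day 56 (SD, n = 3 each), from 306 to 1242 intron reads a library. The lowest SuHx library, with 24.8 intron CPM, lay above all of normoxia, with folds of 1.49 and 1.83, whereas its exon folds were 1.00 and 1.16. Btg3 had 14, 30 and 12 intron reads in normoxia, 230, 232 and 57 at day 28 and 257, 151 and 140 at day 56. Its intron folds were 5.62 and 8.38, beside exon folds of 1.14 and 2.60. Introns gave 17.5% to 24.0% of Btg3 reads in normoxia, 39.0% to 60.2% at day 28 and 36.6% to 49.4% at day 56. Over all genes the intron share also differed between the groups, at 5.37% to 14.6% in normoxia, 14.2% to 24.9% at day 28 and 11.9% to 16.9% at day 56, and its part in the values of these 3 genes was not tested. Whether transcripts outside the annotation gave some of these intron reads was not tested either. Normoxia replicate 1, with an overall intron share of 14.6%, had the lowest Btg3 share, 17.5%, from 14 intron reads. Its Btg1 share, 2.5%, was the highest of normoxia, against 1.78% and 2.02%. Its Tob2 share, 7.3%, lay between the 4.71% and 8.02% of the other normoxia libraries.

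**Figure D4:**
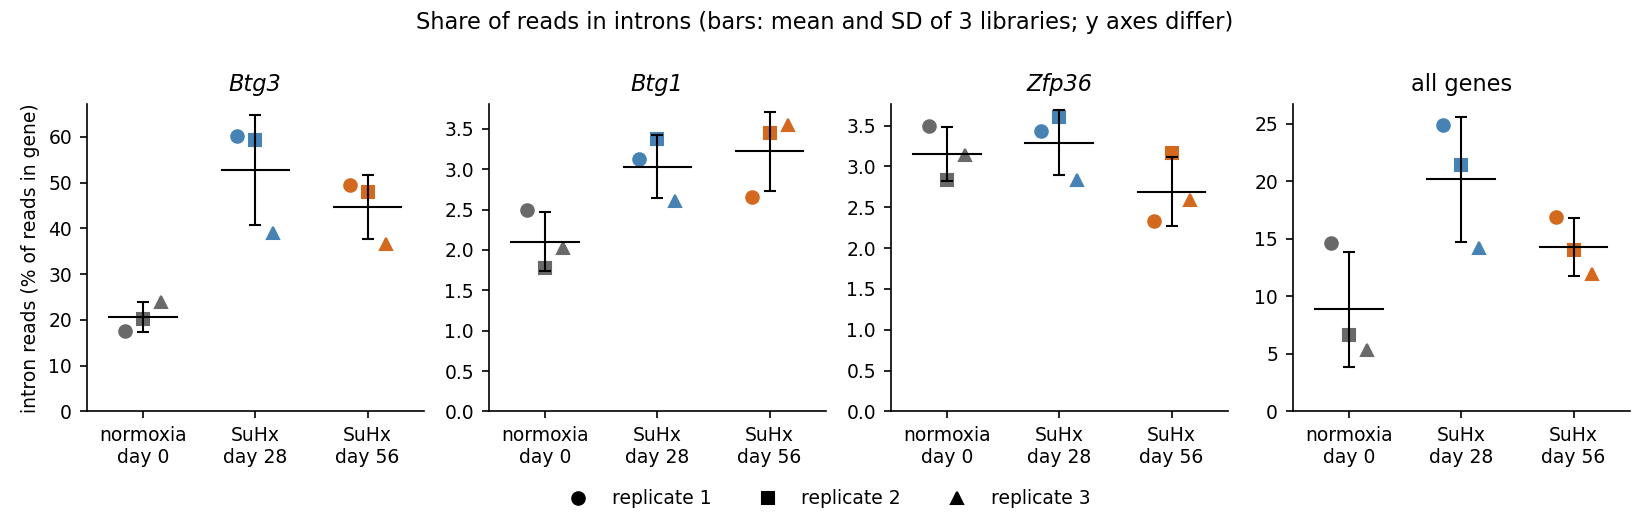
Intron reads as a percentage of the reads in a gene (y axes differ and start at 0) for Btg3, Btg1, Zfp36 and all genes summed, in normoxia at day 0 and SuHx at days 28 and 56; points are libraries, shapes replicate numbers, bars mean and SD. Btg3 is at 17.5% to 24.0% in normoxia and 36.6% to 60.2% in SuHx, while Zfp36 stays between 2.33% and 3.60%.

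The genes most like each of the 8 over the 9 libraries were found by the root-mean-square (RMS) difference of log2 CPM after centring each gene on its own mean, a description over libraries that share groups and composition. Zfp36 was nearest to Nfkbiz and Nfil3 (0.23 each) and Gjb2 (0.26), where its own spread was 0.947. Tob1 was nearest to Pim3 (0.218), Usp27x (0.233) and Nfkbiz (0.238), with a spread of 0.801. Nfkbiz was thus near to both. Of the other 7 genes, Tob1 was the nearest to Zfp36 (0.345, rank 8 of all tested genes), and Btg2 the nearest to Tob1 (0.332, rank 25). Zfp36l2 was nearest to Ptger4 (0.185), Atp6v1fnb (0.218) and Dusp2 (0.238), with a spread of 0.932, and its nearest of the 8 was Btg2 (0.522, rank 103). Btg2 was nearest to Mul1 (0.145), Tatdn2 (0.15) and Cln8 (0.159). Zfp36l1 was nearest to Wasf2 (0.121), Zfp609 (0.122) and Dmrtc2 (0.124), Tob2 to Dpysl2 (0.102), Apbb1ip (0.126) and Taok3 (0.142), and these 2 genes were each other's nearest among the 8 (0.277). Btg1, whose own spread was 0.19, was nearest to Mettl14 (0.057), Fbxo33 (0.0692) and Tyw5 (0.0767), and Btg3 to Snapc2 (0.172), Nfkbid (0.235) and Pik3r1 (0.241).

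Of 12 genes for CCR4-NOT, the deadenylase that the 8 proteins recruit, 0 were called at either day by edgeR's quasi-likelihood test. That test called 0.129% of all genes at day 28 and 7.12% at day 56, so a count of 0 among 12 genes is near the share over all genes. The median log2 fold change was 0.21 at day 28 and -0.06 at day 56. An unadjusted p under 0.05 was reached by 4 genes at each day, where 28.8% of all genes reached it at day 28 and 30.9% at day 56, again near those shares. DESeq2 called 1, lower, at day 28 and 0 at day 56, where it called 13.1% and 17.9% of all genes. Over all alternatives at most 4 were called higher and 2 lower at day 28, without normoxia replicate 1. In that fit 23.0% of all genes were called higher and 22.2% lower. At day 56 at most 3 were called higher and 5 lower, in the libraries coded 061 to 064. There 2843 of all genes were called higher and 3069 lower. Cnot1, the scaffold, averaged 244 ± 13.2 CPM at day 28 and 194 ± 13.1 CPM at day 56, against 229 ± 40.2 CPM in normoxia, and Cnot8, a nuclease that BTG and TOB proteins bind, 74.1 ± 9.19 and 54.9 ± 4.75, against 81.8 ± 20.2 CPM (SD, n = 3 each). The log2 fold change of Cnot8 was -0.57 (SE 0.20) at day 56. Of 7 genes for the other deadenylases and poly(A)-binding proteins 0 were called by edgeR at either day, with unadjusted p under 0.05 for 1 at day 28 and 2 at day 56, and DESeq2 called 0 and 2; their medians were 0.21 and 0.35. Pabpc1, the poly(A)-binding protein that TOB proteins bind, averaged 1196 ± 146 and 1380 ± 175 CPM, against 1198 ± 245 CPM, and Pabpn1, its nuclear counterpart, 119 ± 11.3 and 148 ± 9.24, against 104 ± 23.1 CPM (SD, n = 3 each). Of 19 decapping and 5′ decay genes 0 were called by edgeR, with unadjusted p under 0.05 for 8 at day 28 and 6 at day 56, while DESeq2 called 2 and 3; the medians were 0.16 and 0.09. The shares over all genes were again 28.8% and 30.9% for the unadjusted p and 13.1% and 17.9% for DESeq2. Without normoxia replicate 1, 9 of the 19 were called higher and 7 lower at day 28, and 7 higher and 6 lower at day 56. Of all genes, 45.2% were then called at day 28 (23.0% higher and 22.2% lower) and 43.0% at day 56 (21.8% higher and 21.2% lower). Ddx6, a helicase of decapping complexes, averaged 105 ± 10.3 and 82.3 ± 17.3, against 76.0 ± 31.4 CPM, and Lsm14a, a protein of the same complexes, 93.3 ± 11.7 and 93.4 ± 8.61, against 72.8 ± 14.9 CPM (SD, n = 3 each).

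The exosome, which degrades deadenylated mRNA from the 3′ end, and its SKI helper complex held genes that fell. Of 15 genes 3 fell at day 56 and 0 rose, where 3.70% of all genes fell; 14 of 15 point estimates were below 0 and the median was -0.60. None was called at day 28 in edgeR's test, where the median was -0.35, 6 genes had an unadjusted p under 0.05 (28.8% of all genes) and DESeq2 called 3 lower (7.02% of all genes); at day 56 DESeq2 called 8 lower, beside 9.74% of all genes. Wdr61, a SKI subunit, averaged 12.6 ± 0.663 CPM at day 56, against 28.9 ± 9.61 CPM in normoxia (SD, n = 3 each), with a log2 fold change of -1.20 (SE 0.24, edgeR adjusted p = 0.0245). Exosc1, an exosome cap subunit, had -1.10 (SE 0.28, edgeR adjusted p = 0.0478), and Ttc37, the SKI scaffold, -0.61 (SE 0.15, edgeR adjusted p = 0.0402). Wdr61 stood at 17.8, 35.4 and 33.4 CPM in normoxia, so replicate 1 was the lowest there, and Exosc1 at 6.87, 14.8 and 14.9 CPM. The call of each of the 3 was lost without normoxia replicate 2 or 3, without any 1 day 56 library, and once the intron share was a covariate. Those of Exosc1 and Ttc37 were also lost with the replicate block and without day 28 replicate 1 or 2, and that of Exosc1 without day 28 replicate 3. The highest adjusted p was 0.125 for Wdr61, 0.227 for Exosc1 and 0.156 for Ttc37.

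Among 14 tested genes for other factors that act on 3′ untranslated regions, 3 rose at day 56 and 0 fell, beside 3.42% of all genes that rose. At day 28 edgeR called 0, with unadjusted p under 0.05 for 7 (28.8% of all genes), and DESeq2 called 2 higher and 1 lower (6.1% and 7.02% of all genes). Zc3h12a, the endonuclease Regnase-1 that cuts inflammatory mRNAs, stood at 142, 135 and 131 CPM at day 56, against 28.3, 25.2 and 23.9 CPM in normoxia. Its log2 fold change was 2.40 (SE 0.37, edgeR adjusted p = 0.0112). At day 28 it stood at 86.1, 91.7 and 28.9 CPM, so replicate 3 lay near normoxia, as the lowest library for Zfp36 and Tob1. Arid5a, which protects inflammatory mRNAs from Regnase-1 in mice, rose by 1.12 at day 56 (SE 0.19, edgeR adjusted p = 0.0154), and Hnrnpd, an AU-rich element binder, by 0.76 (SE 0.18, edgeR adjusted p = 0.0407). The call of Zc3h12a was lost without normoxia replicate 2 (edgeR adjusted p = 0.0559) or 3 (0.0527). Those of Arid5a and Hnrnpd were lost without normoxia replicate 2 or 3, when day 56 replicate 2 or 3 was left out, and under the intron covariate, and that of Hnrnpd also without day 56 replicate 1 or any day 28 library; the highest adjusted p was 0.0683 and 0.154.

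Of 12 tested kinases, phosphatases and partner proteins of the ZFP36 and BTG proteins, 1 rose at day 56, beside 3.42% of all genes that rose. At day 28 edgeR called 0, with unadjusted p under 0.05 for 7, beside 28.8% of all genes, and DESeq2 called 3 higher and 1 lower, beside 6.1% and 7.02% of all genes. The gene that rose was Dusp1, the phosphatase that switches off the p38 kinase which inactivates ZFP36 protein by way of MK2. Dusp1 stood at 625, 540 and 321 CPM at day 28 and 309, 344 and 404 CPM at day 56, against 61.8, 140 and 161 CPM in normoxia. All SuHx libraries lay above normoxia, and the log2 fold change at day 56 was 1.54 (SE 0.37, edgeR adjusted p = 0.0407). That call was lost without any 1 of normoxia replicates 2 and 3, day 28 replicates 1 and 2 and the 3 day 56 libraries, and with the replicate block or the intron covariate (adjusted p up to 0.144).

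Of 26 mRNAs reported in other systems as targets of the ZFP36 family, 19 were tested. None was called at day 28 in edgeR's test, where 14 had an unadjusted p under 0.05 (28.8% of all genes) and DESeq2 called 9 higher (6.1% of all genes), and 10 rose and 0 fell at day 56, where 3.42% of all genes rose. At day 56 DESeq2 called 12 of the 19 higher (8.17% of all genes) and 0 lower. Outside the 19 it called 1 list gene lower, where it called 9.74% of all genes lower. With no filter on low counts 10 list genes were called higher and 1 lower, beside 397 and 430 of all genes. Cxcl2, Ptgs2, Lif and Vegfa had few normoxia reads or a low normoxia CPM, given below, and passed the filter through their SuHx libraries. For these mRNAs only a rise could be called. The median log2 fold change was 1.22 at day 28 and 1.55 at day 56, and 16 and 17 of the 19 point estimates were above 0. The list was drawn up with results of these data known and is no independent evidence of a direction; several of its genes, such as Fos, are early response genes themselves. Tnf, the best-known target, was not tested: it had 2 exon reads at each SuHx day and 0 in normoxia, summed over 3 libraries, which is under the 3 counts of the floor.

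Of the 6 named by size at day 56, the chemokine Ccl4 stood at 107, 125 and 163 CPM, against 6.96, 17.8 and 21.2 CPM in normoxia. Its log2 fold change was 3.11 (SE 0.56, edgeR adjusted p = 0.0183). Fos, a subunit of AP-1, stood at 179, 243 and 192 CPM, against 11.5, 36.5 and 57.6 CPM, with 2.54 (SE 0.62, edgeR adjusted p = 0.0427). These 2 genes and Vegfa, given next, lay above normoxia in all day 56 libraries, where 15.6% of tested genes did so. Vegfa, the endothelial growth factor, stood at 3.06, 4.16 and 2.01 CPM, against 0.541, 0.258 and 0.324 CPM, with 3.02 (SE 0.45, edgeR adjusted p = 0.00985). Cxcl2, a neutrophil chemokine, had 266 reads at day 56 and 12 in normoxia, with 4.13 (SE 0.81, edgeR adjusted p = 0.0232), and Ptgs2, the inducible prostaglandin synthase, had 158 and 7 reads, with 4.16 (SE 0.90, edgeR adjusted p = 0.0307). The cytokine Lif had 65 reads at day 56 and 2 in normoxia, a ratio of 26.9 with an exact 95% counting interval of 7.15 to 227; the interval covers counting error only. The other 4 that rose had log2 fold changes of 1.30 to 2.46. Not called at day 56 were Ier3 (0.15, SE 0.44) and Il1b (1.29, SE 0.52) among others.

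Most calls of the targets were lost in fits without 1 library, in which most calls over all genes were lost too. Over all genes 93 and 119 were called without normoxia replicate 2 or 3, against 886 with all libraries. Without day 56 replicate 2 or 3 these were 85 and 109, and under the intron covariate 138. Vegfa lost its call only without normoxia replicate 2 (edgeR adjusted p = 0.0524). The other 9 lost theirs without normoxia replicate 2 or 3, when day 56 replicate 2 or 3 was left out, and under the intron covariate, 8 of them also without day 56 replicate 1 and 5 without day 28 replicate 1, with adjusted p up to 0.0737 for Ccl4, 0.0969 for Cxcl2, 0.144 for Ptgs2, 0.165 for Fos and 0.15 for Lif. Fos and Lif also lost theirs with the replicate block. Between the days 0 genes of the 7 lists passed in edgeR's test, where 0.546% of all genes did. At most 4 of a list had an unadjusted p under 0.05, beside 2302 of all 12447 tested genes. DESeq2 called at most 2 of a list, and 1057 of all genes.

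**Figure D5:**
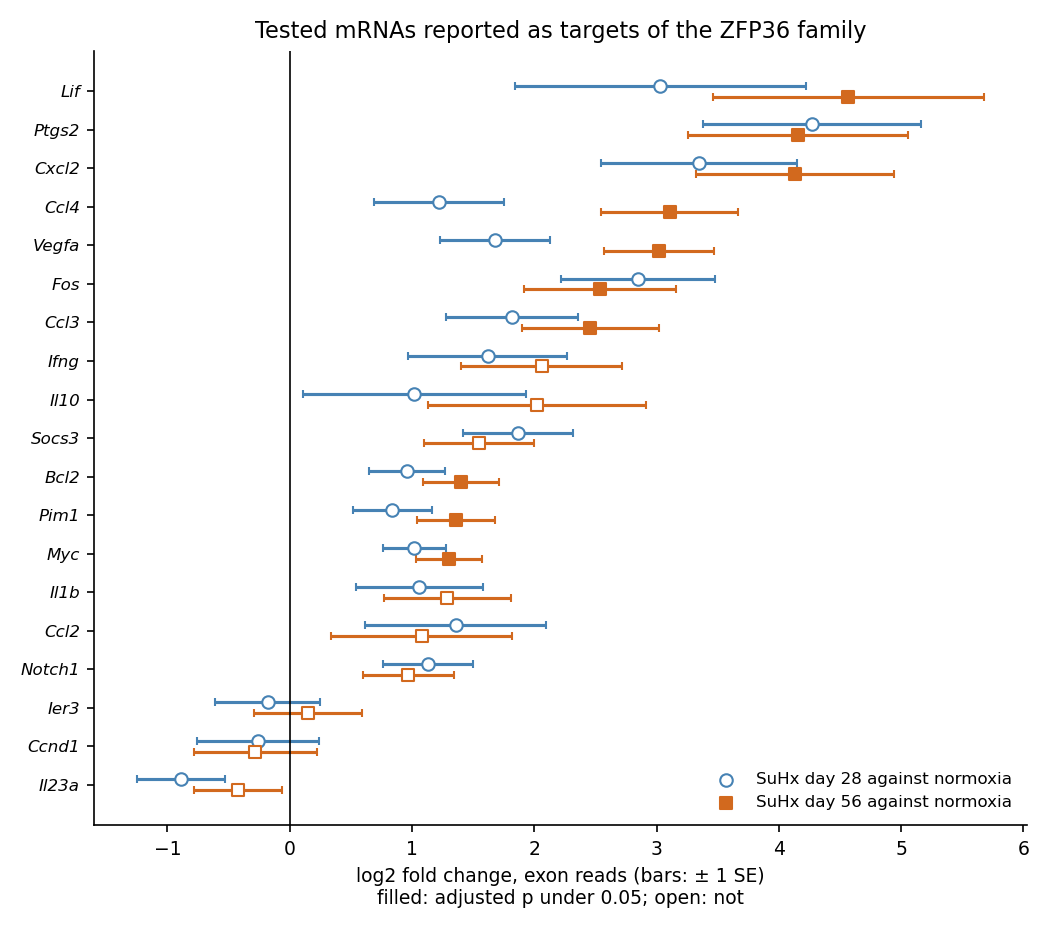
Log2 fold change of exon reads against normoxia (x axis) for the 19 tested mRNAs reported as ZFP36-family targets (y axis) at SuHx day 28 (circles) and day 56 (squares), with bars of 1 SE; filled symbols have an edgeR adjusted p under 0.05. At day 56 10 symbols are filled, all to the right of 0, and at day 28 none is.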

How the data were processed

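The authors deposited 1 table covering all 9 libraries. For each gene and library it holds, per the file headers, exon reads, uniquely mapped exon reads, intron reads and exon length; the deposited exon reads are raw counts. On 6 further columns, the unique and intron reads of replicate 1, the deposited values are formally estimated counts because of fractions on broken lines; all intact lines are whole and needed no rounding. Per the submitters' processing notes, the build was rn6 and FastQC was run; for the aligner and counter, nothing is given in the sources used here. Of 22085 lines 22077 were intact, and 8 broken ones were left out; 99 other columns of values per sample were not used.

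The 9 libraries were grouped by the treatment and day in the labels. Genes were tested with the quasi-likelihood test of edgeR 4.0.16 (robust fit, TMM factors, default filter, 1 mean per group over 9 libraries) in R 4.3.3, with Benjamini-Hochberg adjustment over 12447 genes at 0.05; the SE is the log2 fold change over the root of F. The common biological coefficient of variation was 0.28. The fit was checked on simulated counts with known changes. CPM uses TMM-scaled library sizes, and centred log2 CPM a prior count of 2. No 2 libraries of a group agreed within sampling noise (chi-square per degree of freedom 29.9 to 610), so each counted as 1 sample. Intervals and the floor of 3 counts cover counting error only.

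The 8 genes, the pathway and marker lists and the rules were chosen with earlier results of these data known. Of each pathway list, called genes were named, at most 6 by size, or else the 2 of highest mean CPM; for each of the 8 genes the 3 nearest genes were named. Alternatives were RLE and upper-quartile factors in edgeR, no filter, DESeq2 1.42.0, a replicate block, only the 2 groups compared and unique reads. Others were globin genes removed, the intron share as a covariate and leaving out each library. The fit of libraries coded 061 to 064 was added after seeing the data.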

Additional observations from a re-analysis of the deposited data

How the results depend on the processing

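Of the 8 genes, the count past the threshold at day 28 was 1. It became 0 with RLE factors, with only the 2 groups compared or with the intron share as a covariate, 2 with upper-quartile factors, no filter or unique reads, and 6 with DESeq2, and ran from 0 to 6 without 1 library. At day 56 it was 6, but 4 with only the 2 groups, 3 with the intron covariate, 6 with DESeq2, and 2 to 7 without 1 library. Between the days it was 0, but 2 with DESeq2, 1 with only the 2 groups, and 0 to 1 without 1 library. The causes were not tested. Over the single-gene values, 115 of 144 at day 28, 123 of 152 at day 56 and 138 of 144 between the days kept direction and side of the threshold; 10, 27 and 0 dropped below it and 15, 2 and 4 passed it.

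The sign turned for Btg1 at day 28 with upper-quartile factors (-0.02), unique reads (-0.00) and without normoxia replicate 1 (-0.11), for Btg3 at day 28 with the intron covariate (-0.09), and between the days for Zfp36 without day 28 replicate 2 (0.02) and Zfp36l1 without day 56 replicate 1 (-0.05). Without 1 library these ran from -0.11 to 0.14 for Btg1, -0.65 to 0.02 for Zfp36 and -0.05 to 0.11 for Zfp36l1. The replicate numbers share only a number: the deviations of same-numbered libraries correlated by -0.15 to 0.17 over 9 pairs. With the replicate number as a block, 2 of the 8 genes passed at day 28 and 6 at day 56. Over all genes, 5732 passed at day 28 without normoxia replicate 1 and 1661 with DESeq2, against 16. At day 56, 138 passed with the intron covariate and 2328 with DESeq2, against 886. Between the days DESeq2 called 1057 of all genes, against 68. Comparing only the 2 groups gave 348 at day 56 and 590 between the days. Leaving out 1 library gave 85 to 5453 at day 56 and 3 to 1002 between the days. With only the 2 groups compared, the day 56 calls of Wdr61, Exosc1, Ttc37, Dusp1, Hnrnpd and 1 target (Bcl2) were lost too (edgeR adjusted p 0.0603 to 0.103), as were those of Exosc1 with RLE factors (0.0501) and Ttc37 with no filter (0.0557). Tob1 and Btg3 have the fewest reads, down to 161 and 38 in a library, which limits their precision.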
